A study of Mus musculus with 2 samples.

Results

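Spp1, Gpnmb, Cd9, Cd63, Lgals3, Lgals1 and Capg are 7 genes that mark lipid-associated macrophages, and they were followed in liver sinusoidal endothelial cell (LSEC) preparations from a lean and an obese mouse. They were chosen by name: every non-control probe carrying one of these gene names was taken, which gave 1 probe and 1 spot per gene and array, 7 genes of 31882 genes and unnamed transcripts. One group is a wild-type mouse and the other an ob/ob mouse, which lacks functional leptin and becomes obese. Both mice were male and 8 weeks old, their livers were digested with collagenase, and the cells spent a night in DMEM with fetal serum before total RNA was taken. Each genotype is 1 mouse on 1 array, so no difference below has a replicate check and no test or p-value is given.

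Lipid-associated macrophages gather in fatty liver and in obese fat tissue, where they take up and break down lipid from dying cells. Their programme joins a secreted adhesion protein (osteopontin, encoded by Spp1), a lysosome-linked glycoprotein (Gpnmb), tetraspanins of the cell surface and endosome (Cd9, Cd63), galectins that bind galactose-containing glycans (Lgals3, Lgals1) and an actin-capping protein (Capg), and it depends in part on the lipid receptor TREM2. None of the 7 is made by macrophages alone. Osteopontin is also a product of bile duct cells and of activated stellate cells, CD63 is found in the late endosomes of most cells, and galectin-1 and CD9 are common in endothelial and mesenchymal cells.

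The cells were labelled as LSEC, and all 20 genes of a sinusoidal endothelial marker list were measured, that is, well above background, on both arrays. The scavenger receptor Stab2 had a difference of -0.18, the hyaluronan receptor Lyve1 of -0.40, Clec4g of 0.25 and Fcgr2b of -0.22. Of the 20, 0 differed by at least 2-fold. Signal of macrophage genes was present on both arrays too: 24 of 25 Kupffer cell and macrophage markers were measured on both, including the wild-type one, and Cd163 was well above background on neither. Differences here are log2 of the ob/ob signal minus log2 of the wild-type signal, after each array was divided by its own 75th percentile. The median difference over the 18139 genes measured on both arrays was -0.12.

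The probes are printed because each result below rests on a single one of them. Spp1 was read by this 60-base probe on chromosome 5, at chr5:104868502-104868561 of mouse build mm9, plus strand:

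Spp1: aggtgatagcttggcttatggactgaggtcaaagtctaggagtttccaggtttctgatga

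In 4 of the 7 probes a polyadenylation signal was found, either AATAAA or its variant ATTAAA, the hexamer that directs cleavage at the end of a messenger RNA. The 30 bases that hold it are shown with the hexamer in capitals:

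Cd63: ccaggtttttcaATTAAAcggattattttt

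Lgals3: agacatccatttAATAAAgtctcatgctga

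Lgals1: cctgtagccctcAATAAAggcagctgcctc

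Capg: ctctggatgctcAATAAAggacacattcca

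These stretches lie on the plus strand of mm9 at chr10:128349835-128349864 (Cd63), chr14:48005439-48005468 (Lgals3), chr15:78760585-78760614 (Lgals1) and chr6:72512938-72512967 (Capg). Both strands were searched for both hexamers. The Lgals3 probe also reads ATTAAA on the opposite strand, where it overlaps AATAAA, and the probes of Spp1, Gpnmb and Cd9 hold neither hexamer on either strand. Of all 39429 probes, 16.7% hold one of the hexamers on the probe strand and 6.56% on the opposite strand. Over genes measured on both arrays, the median difference was -0.21 for 3600 genes whose probe holds a hexamer and -0.10 for 14539 without one. The Gpnmb probe covers chr6:49006386-49006445 on the plus strand and the Cd9 probe chr6:125410387-125410446 on the minus strand. Whether each probe lies in coding or untranslated sequence was not analysed here.

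Among the 7 genes, Spp1 alone differed by at least 2-fold, and it was higher in the ob/ob cells. Cd9 and Capg were each about 1.7 times as bright on the ob/ob array, Lgals1 and Gpnmb were nearly level, and Lgals3 and Cd63 were somewhat dimmer. In all, 1 of 7 genes was at least 2-fold higher and 0 were lower, with a median of 0.15. For comparison, among all genes measured on both arrays 5.82% reached 2-fold on the higher side and 2.29% on the lower side. The count of 1 rests on the scaling for Cd9 and Capg, since with differences centred on the signal level 3 of the 7 were at least 2-fold higher.

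All 7 genes were well above background on both arrays, and none of their spots was saturated or marked as an outlier by the scanner software. The local background of the 14 spots lay between 61 and 67, beside array medians of 63 for wild-type and 60 for ob/ob. The scanner's error model gave each of the 7 differences an SD of 0.20. This SD was nearly the same for dim and bright spots, so it is a model value and not a scatter measured on these spots. For 257 probes printed at 10 positions, the differences at single positions scattered with a median SD of 0.05. Where a gene had more than 1 measured probe (3693 genes), its probes scattered with an SD of 0.33. These figures are technical, and the spread between mice is not known here.

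**Figure D1:**
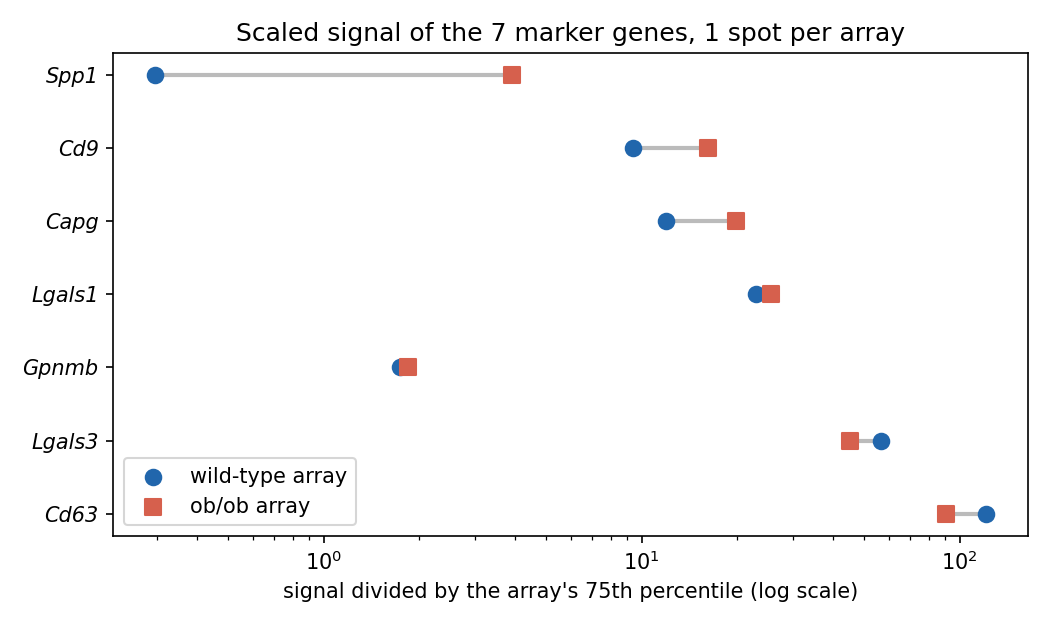
Signal of each gene's spot divided by the 75th percentile of its array (log axis), wild-type as circles and ob/ob as squares; positions are comparable along a row, not between rows, because probes differ. The gap is widest for Spp1, from 0.295 to 3.90, and the order of the 2 arrays is turned for Lgals3 and Cd63.

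Spp1 encodes osteopontin, a secreted phosphoprotein that binds integrins and CD44 and recruits macrophages. Its spot had a signal of 291 in wild-type cells and one of 5580 in ob/ob cells. Divided by the 75th percentile of each array, these were 0.295 and 3.90. The ob/ob cells were therefore 13.2-fold brighter, a log2 difference of 3.73 with an error-model SD of 0.20. Only 23 of the 18139 genes, or 0.127%, had a higher difference. The wild-type signal was not at the floor, being 23.6 times the dimmest signal that counted as measured on that array, so the fold is a measured value and not a bound.

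Osteopontin acts through a set of receptors and is modified by several enzymes, and 14 of 16 such genes were measured on both arrays. Of these, 5 (35.7%) were at least 2-fold higher and 0 lower, beside 5.82% and 2.29% of all genes measured on both arrays. The median was 0.81 against -0.12 over all genes. The highest were the integrin subunit Itga4 at 3.18, prothrombin F2, whose product cleaves osteopontin, at 2.99, and the integrin subunit Itgb5 at 1.55. The receptor Cd44 at 1.43 and the secretory kinase Fam20c, which phosphorylates osteopontin, at 1.41 complete the 5. Itga4 was dim in wild-type cells, with a signal of 25.6 beside 336 in ob/ob cells. The lowest were Itga8 at -0.07, Itgb1, the shared beta chain of several osteopontin receptors, at 0.07 and Itga9 at 0.14. Itgav, a partner of Itgb3 and Itgb5 in osteopontin binding, differed by 0.16 while Itgb3 differed by 0.94. Mmp9, a protease that cuts osteopontin, was above background in ob/ob cells only, at least 2.75-fold brighter there. Mmp7 was well above background on neither array. F2 is made by hepatocytes and Itga4 by many leukocytes. Most hepatocyte and macrophage markers were at least 2-fold higher on the ob/ob array too. Of 5 neutrophil and 4 lymphocyte markers measured on both arrays, 1 and 0 were at least 2-fold higher. A further 3 neutrophil and 4 lymphocyte markers were above background on the ob/ob array only. Over all genes this held for 2180, beside 273 on the wild-type array only. The part of these cell types in the values of the osteopontin partners was not tested.

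Gpnmb encodes a transmembrane glycoprotein that is induced when lysosomes are loaded and is a standard marker of foam cells. Its signals were 1720 for wild-type and 2630 for ob/ob, or 1.74 and 1.84 after scaling. The log2 difference of 0.08 is smaller than its error-model SD of 0.20. With scaling on the array median the difference was -0.20, so no direction can be given. Of the 18139 genes, 30.6% had a higher difference.

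The MiT/TFE transcription factors, which drive lysosomal genes, formed a list of 11 genes with relatives and partners of GPNMB and with Ctsk, Acp5 and Atp6v0d2. Acp5 stands in the osteopontin list too, and Atp6v0d2 in the wider macrophage programme below. Of the 11, 9 were measured on both arrays. In this list 1 was at least 2-fold higher and 0 lower, with a median of 0.07. The lysosomal protease Ctsk was highest at 1.38, followed by the phosphatase Acp5 at 0.90 and the heparan sulfate proteoglycan Sdc4 at 0.90. Tfec at -0.60, Tfe3 at -0.58 and Tfeb at -0.25 were lowest. Mitf differed by 0.88 by its brighter probe and by 1.44 by the other, and was looked at after its values were seen. The melanosome genes Pmel, the closest relative of Gpnmb, and Mlana were well above background on neither array.

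Cd9 and Cd63 encode tetraspanins, small membrane proteins that gather integrins and other partners into patches. Cd9 works mostly at the cell surface and had a signal of 9260 in the wild-type preparation and 23100 in the other. After scaling these were 9.37 and 16.2, a difference of 0.79 or 1.72-fold. That is beyond the error-model SD of 0.20 and the spread between probes of a gene, 0.33, and below the 2-fold mark. Cd63 works in late endosomes and exosomes, and its spot was among the brightest, with signals of 119637 and 130000. Scaling turned this to 121 and 90.9, a difference of -0.41, so the ob/ob signal was 1.33-fold lower. The sign of the Cd63 difference depended on the scaling and was 0.08 with quantile normalization and 0.01 after centring on the signal level. The tetraspanins thus stood apart from each other by 1.20, Cd9 higher and Cd63 lower under the main scaling.

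Other tetraspanins and their membrane partners mostly stayed within 2-fold. Of 23 measured on both arrays, 1 was at least 2-fold higher and 0 lower, and the median was 0.02. The leukocyte tetraspanin Cd53 was highest at 1.96, then Tspan13 at 0.94 and Tspan15 at 0.69. Tspan4 at -0.88, Cd151 at -0.59 and the laminin-binding integrin chain Itga6 at -0.59 were lowest. Tspan33 was above background in ob/ob cells only and at least 4.56-fold brighter there. The closest relative of Cd9, Cd81, differed by -0.50. Of 10 genes of the late endosome and exosome route that carries CD63, all were measured on both arrays, 1 was at least 2-fold higher and 0 lower, with a median of -0.05. That gene was Timp1, a protease inhibitor that binds CD63 at the cell surface, at 2.47, followed by Rab27b at 0.67 and the exosome adaptor Sdcbp at 0.30. Hgs at -0.82, the lysosomal membrane protein Lamp1 at -0.61 and Scarb2 at -0.54 were lowest. Timp1 also stands in the stellate cell list below.

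Lgals3 and Lgals1 encode galectins. Galectin-3 is a chimeric galectin abundant in macrophages, long used as the antigen Mac-2, and galectin-1 is a dimer that dampens T cells and is common in endothelium and stroma. Lgals3 had signals of 55993 and 64600, which scaled to 56.6 and 45.2, a difference of -0.33. The sign turned to 0.04 with quantile normalization and to 0.10 after centring on the signal level. Lgals1 had signals of 22604 and 36400, or 22.9 and 25.5 after scaling, a difference of 0.15 that is within its error-model SD of 0.20. It was 0.47 with quantile normalization and -0.12 when arrays were scaled on their medians. Neither galectin reached 2-fold in any of the 10 other ways of processing that were tried.

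Other galectins and a galectin binding protein formed a list of 10 genes. Of these, 5 were measured on both arrays, and 0 of the 5 were at least 2-fold higher or lower, with a median of 0.22. They were Lgals9 at 0.44, Lgalsl at 0.43, Lgals4, a gut galectin, at 0.22, Lgals8 at -0.34 and the galectin-3 binding protein Lgals3bp at -0.37. Lgals2 and Lgals6 were above background on the ob/ob array only and too dim to give a fold, and Lgals7, Lgals12 and Grifin were above background on neither. Lgals6 is a near copy of Lgals4, so their probes may share signal.

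Capg encodes macrophage capping protein, a member of the gelsolin family that caps actin filaments without cutting them. Its signal was 11755 in the wild-type preparation and 28300 in the other, or 11.9 and 19.8 after scaling. The difference was 0.73, or 1.66-fold, below 2-fold. It was larger than the error-model SD of 0.20 and the spread between probes of a gene, 0.33. Of all genes, 8.00% had a higher difference. Among other members of the gelsolin family and actin end-binding proteins, 11 of 13 were measured on both arrays, 1 was at least 2-fold higher and 1 lower, with a median of -0.12. The villin-like gene Vill was highest at 2.05, then supervillin, Svil, at 0.68 and gelsolin, Gsn, at 0.59. Scin, which unlike CAPG cuts filaments, was lowest at -2.40, then thymosin, Tmsb4x, at -0.50 and the capping subunit Capza2 at -0.44. Villin, Vil1, was above background in ob/ob cells only, by at least 1.30-fold.

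**Figure D2:**
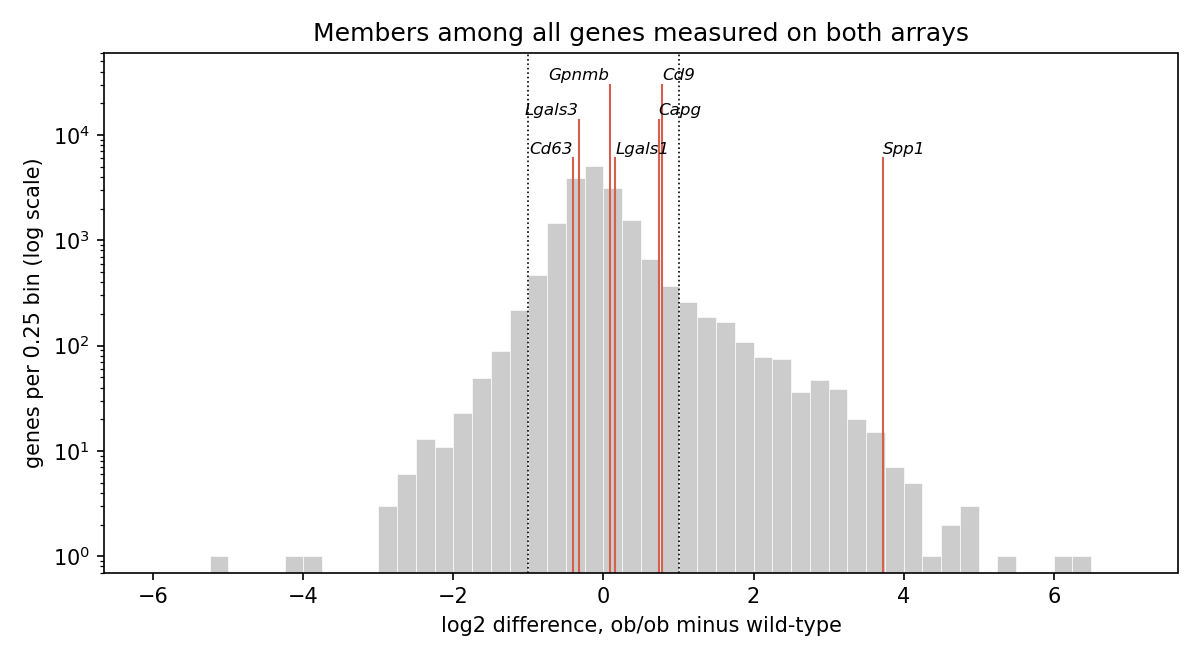
Histogram of log2 differences (ob/ob minus wild-type) over the 18139 genes measured on both arrays, counts on a log axis, with the 7 genes as vertical lines and 2-fold as dotted lines. Spp1 at 3.73 lies in the sparse upper tail, and the other 6 lie between -0.41 and 0.79.

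The median difference changed with the signal on these arrays, so each of the 7 was also set against genes of like signal. Genes were ordered by their mean signal on both arrays and divided into 20 classes, of 907 genes each except 1 class of 906. The median was -0.22 in the dimmest class, reached 0.08 at moderately low signal, was -0.07 in the class that holds Spp1 and fell from there, class by class, to -0.42 in the brightest class, which holds Cd63 and Lgals3. In the class of Cd9 and Capg the median was -0.27, only 0.662% of genes were at least 2-fold higher, and 10 genes had a higher difference than Cd9 and 12 a higher one than Capg. Taken against their class medians, Cd9 was 1.06 and Capg 1.01 higher. Lgals1 was 0.46 higher than its class, with 7.50% of the class above it, and Gpnmb 0.17 higher, with 27.9% above it. Lgals3 at 0.10 and Cd63 at 0.01 stood within the interquartile range of theirs, with 30.3% and 47.4% of the class above them. Spp1 was 3.80 higher than its class, in which 0.110% of genes had a higher difference. Against the class medians all 7 differences were above 0, and 4 of the 7 lay above the upper quartile of their class.

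Spp1 had the highest difference in each of the 10 other ways of processing, between 3.23 and 3.84, and Cd9 and Capg came next. Several of these ways could not change the order: each of the 7 genes has 1 measured, unmarked probe, so 3 choices (averaging probes, keeping marked spots, no filter on dim probes) return the same values, and 2 other scalings move all genes by one constant. Among the lower genes the order did change, since Cd63 was above Lgals3 with quantile normalization, at 0.08 against 0.04, and below it under the main scaling. Cd9 ranged from 0.51 to 1.06 and Capg from 0.46 to 1.01. For 3 of the 7 genes, Spp1, Cd9 and Capg, all values were above 0, and for Lgals1, Gpnmb, Lgals3 and Cd63 they lay on both sides of it. Lgals1 ranged from -0.12 to 0.47, Gpnmb from -0.20 to 0.19, Lgals3 from -0.61 to 0.10 and Cd63 from -0.69 to 0.08.

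**Figure D3:**
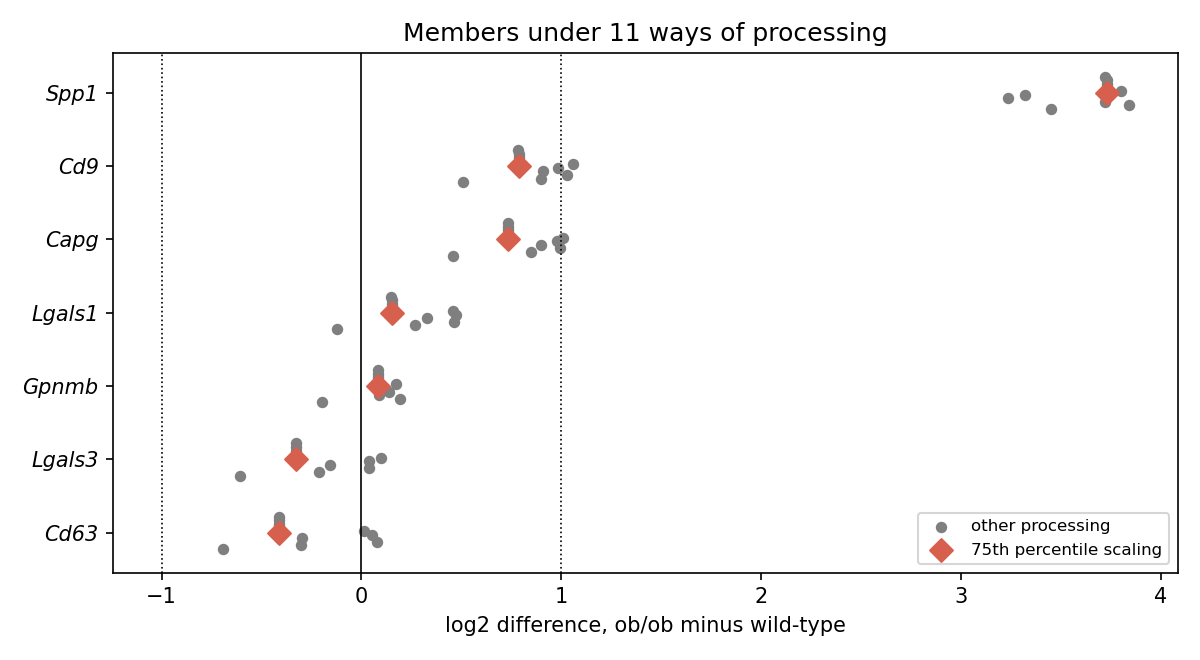
Log2 difference of each gene under the main scaling (diamonds) and 10 other ways of processing (dots), with 2-fold as dotted lines. Spp1 is at 3.23 or more throughout, Cd9 and Capg reach the 2-fold line in some, and the other 4 genes straddle 0.

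Beyond the 7 genes, the wider lipid-associated macrophage programme was represented by 27 genes, 26 of them measured on both arrays. Of these, 5 (19.2%) were at least 2-fold higher and 0 lower, beside 5.82% and 2.29% of all genes measured on both arrays. The median was 0.46, beside 0.15 for the 7 genes. With differences centred on the signal level, these medians were 0.59 and 0.46. The highest were the integrin Itgax, the CD11c of such macrophages, at 3.54, the oxysterol receptor Nr1h3 at 2.10 and Tyrobp, the signalling adaptor of TREM2, at 1.95. Lipoprotein lipase, Lpl, at 1.11 and lysosomal acid lipase, Lipa, at 1.02 complete the 5. Itgax was dim in wild-type cells, with a signal of 33.4 beside 561 in ob/ob cells. Itgax also stands in the monocyte marker list below and Tyrobp in the macrophage one. The lysosomal proteases Ctsd at -0.97 and Ctsl at -0.59 and the cholesterol ester hydrolase Nceh1 at -0.39 were lowest. Trem2 itself differed by 0.43, from a signal of 1703 to 3330, so receptor and adaptor differed by unequal amounts. Cst7, a protease inhibitor of this programme, was above background in ob/ob cells only, by at least 2.31-fold.

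Markers of several cell types other than LSEC were higher on the ob/ob array, and these values stand beside the Spp1 result. In bulk RNA, more cells of a type and more RNA per cell cannot be told apart. Of the 24 measured macrophage markers 18 were at least 2-fold higher and 1 lower, with a median of 1.76. Their summed scaled signal was 101 in wild-type cells and 210.3 in ob/ob cells, 2.08-fold higher. Of their defining genes, the Kupffer cell lectin Clec4f was 1.51 higher, the complement receptor Vsig4 3.20, Adgre1 (F4/80) 1.73 and the leukocyte antigen Ptprc 1.82. Timd4, a receptor of resident macrophages, at 4.63 and Aif1, a calcium-binding protein of macrophages, at 3.96 were the highest of the list and above Spp1 at 3.73, and the iron exporter Slc40a1 at -1.71 was the lowest. Timd4 was close to background in wild-type cells, with a signal of 14.4 beside 517 in ob/ob cells. Cd9, Capg, Lgals1, Gpnmb, Lgals3 and Cd63, at 0.79 or less, were all below the macrophage list median. Of 10 monocyte and dendritic cell markers 3 were measured on both arrays, and 1 of these, Itgax, was at least 2-fold higher. Itgam differed by -0.08 by its brighter probe, which was counted, and by 2.85 by its other probe. Above background in ob/ob cells only were Chil3, by at least 110-fold, Flt3, by at least 2.66-fold, Cx3cr1, by at least 1.89-fold, and Ccr2, which was too dim to give a fold. Of all genes 2180 were above background in ob/ob cells only and 273 in wild-type cells only.

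Osteopontin is also made by bile duct and stellate cells. Of 10 cholangiocyte markers 4 were measured on both arrays, with a median of 1.89 and a summed signal that went from 0.273 in wild-type to 1.62. The 2 that were at least 2-fold higher, Krt8 at 2.90 and Krt18 at 2.81, are keratins that hepatocytes make too, and with scaled ob/ob signals of 0.524 and 1.02 they make up most of that sum. The other 2 were Cldn7 at 0.98 and Cftr at -0.31. The defining markers Krt7, Krt19, Epcam and Sox9 were well above background on the ob/ob array only, by at least 1.01-fold to 1.87-fold, with signals of 18.1 to 33.3 there. Such genes numbered 2180 over the whole array, beside 273 on the wild-type array only. Of 15 stellate cell and fibroblast markers 13 were measured on both arrays, 12 of them at least 2-fold higher and 0 lower, with a median of 2.04 and a summed signal of 10.2 and 40.0. Dcn, with scaled signals of 8.00 and 33.2, makes up most of both sums. Lrat was 2.32 higher, Des 1.53 and Pdgfrb 1.60, and Col1a1, above background in ob/ob cells only, was brighter by at least 8.12-fold. Hepatocyte markers had 12 of 14 at least 2-fold higher and 0 lower, with a median of 2.68 and a summed signal of 7.43 and 41.7. Among them Alb was 3.15, Apob 3.65, Ttr 2.31 and Cyp2e1 2.83 higher. Cyp3a11 at 3.79 was the highest of this list and lay just above Spp1 at 3.73. Apob was close to background in wild-type cells, with a signal of 13.5 beside 245 in ob/ob cells. The part of any of these cell types in the Spp1 difference was not tested.

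The 3 remaining marker lists had 5 or fewer genes measured on both arrays. Neutrophil markers had 1 of 5 at least 2-fold higher and 2 lower, with a median of -0.24. Lcn2 at 2.28 was the higher one, Elane at -1.01 and Mpo at -1.32 were the lower ones, and Ly6g differed by 0.08. In ob/ob cells only, 3 others were above background: Mmp8, by at least 9.30-fold, S100a9, by at least 5.77-fold, and S100a8, by at least 2.77-fold. Lymphocyte markers had 0 of 4 beyond 2-fold, Nkg7 at -0.19 and Cd79b at 0.41 among them. Of the other lymphocyte markers 4 were above background in ob/ob cells only, the protease Gzmb by at least 8.80-fold, Cd3d by at least 6.44-fold, Cd3g by at least 2.01-fold and Cd2 by at least 1.20-fold, and Cd79a was above background on neither array. Of 7 mesothelial markers Gpm6a alone was measured on both arrays, at 0.64, and Msln, Upk3b and Wt1 were above background on neither. The counts in ob/ob cells only stand beside 2180 such genes on the whole array, and 273 in wild-type cells only.

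**Figure D4:**
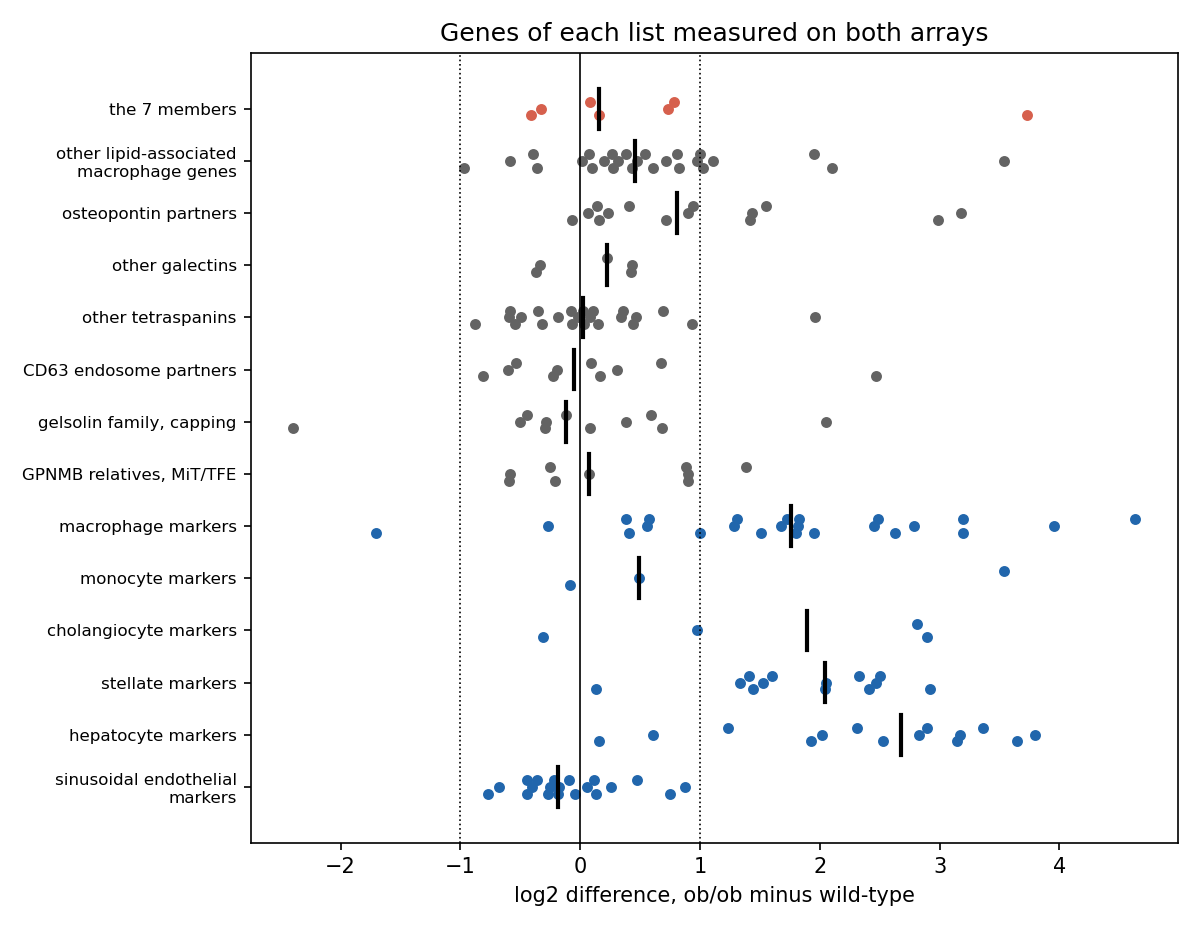
Log2 difference of every gene measured on both arrays in each list shown; bars mark medians and dotted lines 2-fold. The 7 genes have a median of 0.15, the macrophage markers of 1.76, the stellate cell markers of 2.04, the hepatocyte markers of 2.68 and the sinusoidal endothelial markers of -0.18.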

How the data were processed

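RNA of LSEC from 1 wild-type and 1 ob/ob mouse was amplified from low input and labelled with Cy3, per the labels' protocols, and read on 1-colour Agilent arrays of design 026655. The deposited scanner files hold spot intensity, background-subtracted, spatially detrended and not scaled between arrays by Agilent Feature Extraction 11.0.1.1, per the file headers; the ob/ob file gives 3 digits. Their flags for background, saturation and outliers (other values) were used as deposited. The authors' deposited table holds a ratio, the intensity divided by the array's 75th percentile: its 24868 features matched that quotient with a range of 0.978% (wild-type) and 1.42% (ob/ob) of the median, so scale, direction and lack of centring were settled, and its column medians are 0.614 and 0.647.

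Here log2 intensity minus log2 of the 75th percentile over the 43020 non-control spots (989 and 1430) was used. Flagged spots (148 and 120) were dropped, and spots of a probe averaged. A probe was measured where over 50% of its spots were well above background (58.6% and 64.8% of spots on the arrays). A gene was represented by its probe brightest over both arrays. Bounds ("at least N-fold") set the bright value against the higher of the dimmest measured signal (12.3 and 11.7) and the dim probe's own. Symbols came from a RefSeq table of assembly GRCm38.p6 by accession for 26154 of 39429 probes, otherwise from the file. Printed probe sequences and mm9 coordinates are from the scanner files.

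With 1 array per group no test was possible, and this number limits the precision. Calls use 2-fold. The 7 genes, the 16 lists (227 genes) and the rule for naming genes (all 7 genes; of each family list the 3 highest, the 3 lowest and any with a bound of at least 4-fold; of each cell type list set defining markers; others that complete a small count, lie above Spp1 or are relatives were named after their values were seen) were chosen with earlier results of these data known. On simulated arrays with changes set well beyond 2-fold and little noise, 200 of 200 changed genes were recovered, among 18139. That run checks the code only. The reliability of 2-fold calls on the real arrays was not tested. Python 3.11.15, pandas 2.3.3, R 4.3.3 and limma 3.58.1 (normexp) were used. The alternatives tried were other scaling, background correction, probe choice and filters, and the authors' values.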

Additional observations from a re-analysis of the deposited data

How the results depend on the processing

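All alternatives were planned. The count of genes at least 2-fold higher among the 7 was 1 in 8 of the 10 alternatives, 2 with quantile normalization and 3 with differences centred on the signal level, and 0 were lower in any. Of these 8, the probe mean, the marked spots and the dim filter cannot change the 7 genes, which have 1 measured, unmarked probe each. The median over the 7 ranged from -0.12 to 0.47. Over all genes, 1056 reached 2-fold on the higher side and 416 on the lower side (71.7% higher). Scaling on the array median, which moves the median of all genes from -0.12 to -0.40, left 978 lower (44.0% higher). Normexp with the 75th percentile gave 369 higher and 3832 lower (8.78% higher), normexp with quantile normalization 509 and 130 (79.7%), and no filter on dim probes 2679 and 1633 (62.1%). Quantile normalization of the processed signal gave 62.2% higher. The median of the gelsolin family was 0.23 with normexp and quantile normalization, against -0.12. The other 6 family medians moved by less than 0.33, the SD between probes of a gene, in each alternative. Normexp lowered Spp1 to 3.23 with the 75th percentile and 3.32 with quantile normalization. The cause of these shifts was not tested. No paired analysis was possible because each group has 1 array, and for the same reason no array could be left out. Signals were 23.6 or more times the dimmest measured signal for all 7 genes, though the size of the Spp1 difference still moved with normexp background correction.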
